A study of Homo sapiens with 12 samples.

Results

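The experiment asked what dBRD9-A still changes in rhabdoid tumour cells once SMARCB1 has been put back. It is made of 6 of the 12 RNA sequencing libraries of the series, all from G401, an established line of human malignant rhabdoid tumour of the kidney whose genotype is given as SMARCB1(-/-). In all 6, doxycycline induced SMARCB1. Libraries 1 to 3 of the first group were from cells given the solvent DMSO, and libraries 1 to 3 of the second were from cells given dBRD9-A, which brings about breakdown of BRD9 protein, for 24 hours. The other 6 libraries were from G401 cells in which doxycycline induced GFP in place of SMARCB1, with the same DMSO (3 libraries) and dBRD9-A (3 libraries) arms; they entered the fit and serve here as the comparison without SMARCB1. The dose of dBRD9-A, the length of the doxycycline induction before treatment and whether replicates were separate cultures are not given in the labels, so p-values measure the spread between these libraries, which may be technical. The induced genes came from 1 cell line, and every group carried doxycycline.

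SWI/SNF (BAF) complexes use the energy of ATP to move nucleosomes and so open enhancers and promoters. SMARCB1 is a core subunit of the canonical BAF and PBAF forms and is lost in rhabdoid tumours, while the non-canonical form (ncBAF), which holds BRD9 together with BICRA or BICRAL, is assembled without SMARCB1. Rhabdoid cells are known to depend on BRD9, and the degrader removes the protein through a ubiquitin ligase, so its mRNA need not change.

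Changes were small and leaned towards loss. Of 15750 genes tested with edgeR's quasi-likelihood test, 304 passed a Benjamini-Hochberg adjusted p of 0.05 (1.93%), and these are called changed below. Of them, 107 were higher with dBRD9-A (0.679%) and 197 lower (1.25%). Among the called genes the absolute log2 fold change had a median of 0.25, and 17 fell and 6 rose by 1 log2 unit or more. In every one of the 304, the 3 dBRD9-A libraries lay wholly on one side of the 3 DMSO libraries, against 8.43% of all genes for higher and 8.5% for lower. At an unadjusted p of 0.05, 2006 genes passed. The count was 159 when the 6 SMARCB1 libraries were fitted alone, 169 without SMARCB1 DMSO replicate 3, 174 without SMARCB1 DMSO replicate 2 and 196 without SMARCB1 dBRD9-A replicate 3. Where libraries were scaled to the spike-in RNAs instead, the median gene moved by -0.14, and 39 genes were higher and 834 lower, so that higher genes made up 4.47% of the calls in place of 35.2%; all 197 lower genes were still called lower, while 13 of the 107 higher genes were still called higher and 11 turned sign. As that scaling moved genes down as a whole, it put the rises to the test and not the falls. How the spike-ins were added is not given in the labels.

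**Figure D1:**
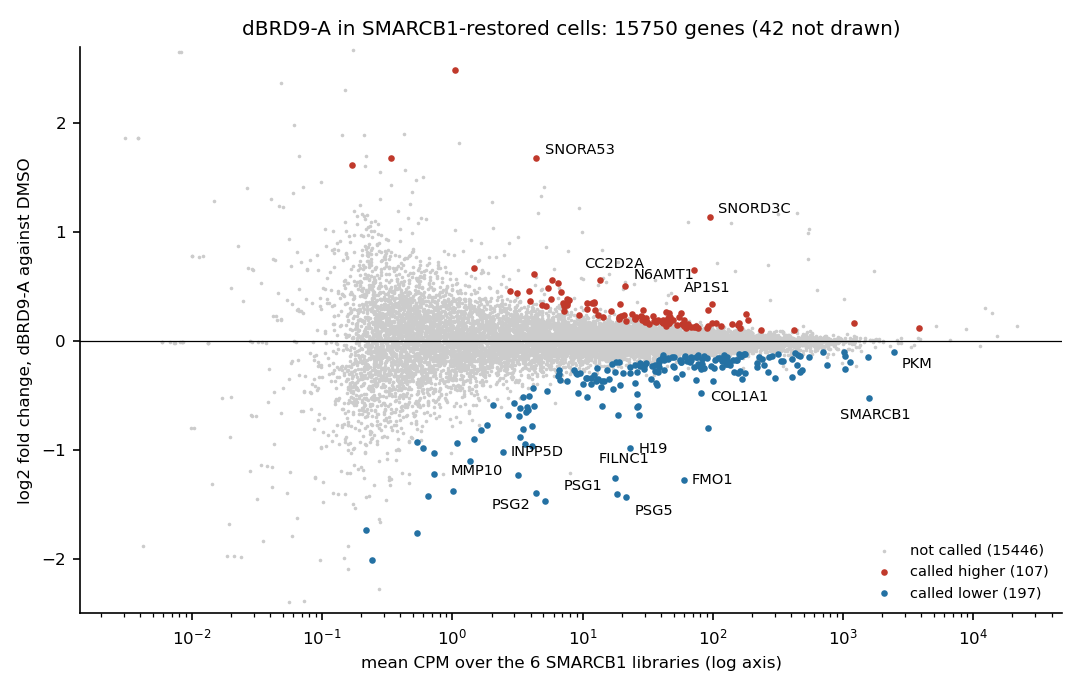
Log2 fold change of each gene with dBRD9-A in SMARCB1 cells (vertical axis) against its mean level in counts per megacount (CPM) over the 6 SMARCB1 libraries (horizontal log axis); red and blue points are the 107 higher and 197 lower genes, and 42 genes at 0 CPM or beyond the vertical axis are not drawn. PSG1, PSG2, PSG5, PSG11, FMO1 and FILNC1 lie between -1.26 and -1.47; above 0, SNORA53 (1.68) and SNORD3C (1.14) lie farther out than N6AMT1 (0.51) and CC2D2A (0.56).

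Libraries held 38.36 to 58.36 megacounts (1 megacount being 1000000 counts) in the SMARCB1 groups. SMARCB1 mRNA was near absent in the GFP libraries, at 0 to 2 counts each, which checks the labels. In the SMARCB1 groups, members of the list of rhabdoid and G401 markers summed to 6074 to 6297 CPM in DMSO and to 5975 to 6294 CPM with dBRD9-A, with 9 and 7 of 9 members over 3 counts. The haematopoietic list of 8 genes summed to 57.5 to 61.0 CPM in SMARCB1 DMSO libraries and to 63.7 to 67.6 CPM with dBRD9-A, with 2 and 3 members over 3 counts. Of these sums CD68, a lysosomal protein, alone gave 57.4 to 60.8 and 63.4 to 67.2 CPM, and the part of this list in the results was not tested. PTPRC, CD3E, CD14 and SPI1 were at or under 3 counts in every SMARCB1 library, and the endothelial list summed to 1.31 CPM at most. The small nucleolar RNA (snoRNA) and scaRNA genes took 0.415%, 0.233% and 0.648% of counts in dBRD9-A libraries 1 to 3 against 0.266% to 0.304% in the SMARCB1 DMSO libraries, so libraries 1 and 3 stood apart.

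**Figure D2:**
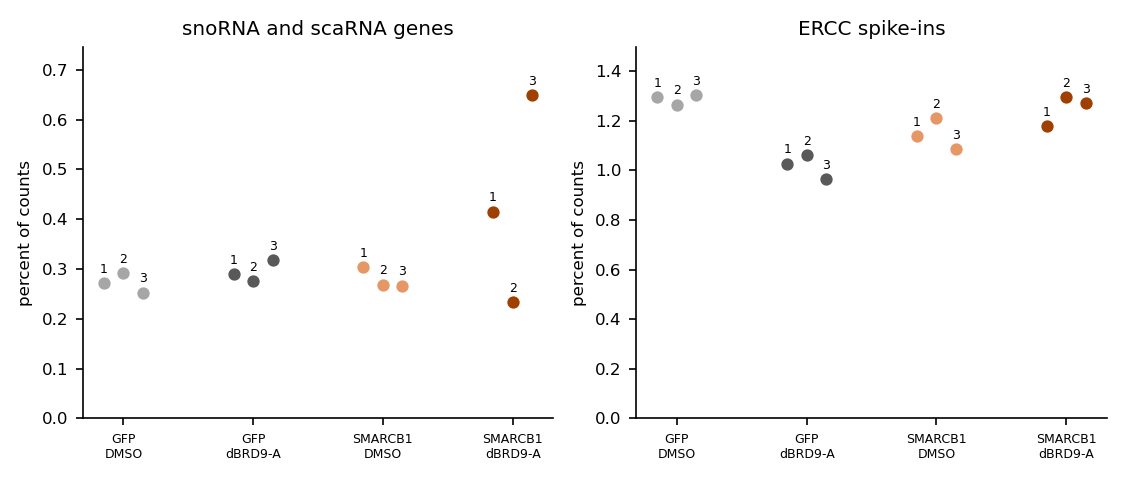
Percent of a library's counts from snoRNA and scaRNA genes (left) and from ERCC spike-ins (right), with 1 point per library, numbered by replicate, in the 4 groups. SMARCB1 dBRD9-A libraries 1 and 3, at 0.415% and 0.648%, lie above the other 10 libraries on the left, and spike-in shares run from 0.963% to 1.3%.

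The pregnancy-specific glycoprotein (PSG) genes, a tandem family on chromosome 19 whose secreted products are made in quantity by the placental trophoblast, held the largest block of falls. Of the 11 members tested, 9 were called lower and 0 higher, against 1.25% of all genes called lower. Their median was -0.97 on the log2 scale against 0.0028 over all genes tested. Start-site sequences of 3 members (PSG3, PSG4 and PSG5) were in the RefSeq table for GRCh38.p14, another build than that of the counts, and they are shown because the log2 fold changes of these genes lie far apart (-0.68, -0.14 and -1.43) while long runs of upstream sequence are shared. Each runs 5' to 3' over the 250 bases before the annotated start on the minus strand, and capitals mark the letters CCCCNCCC.
PSG3, chr19:42740482-42740731: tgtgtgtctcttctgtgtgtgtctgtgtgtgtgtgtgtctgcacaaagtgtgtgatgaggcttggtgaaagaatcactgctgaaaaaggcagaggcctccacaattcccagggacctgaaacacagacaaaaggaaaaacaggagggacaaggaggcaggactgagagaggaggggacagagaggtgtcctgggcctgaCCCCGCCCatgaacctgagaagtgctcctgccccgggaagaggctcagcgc
PSG4, chr19:43205639-43205888: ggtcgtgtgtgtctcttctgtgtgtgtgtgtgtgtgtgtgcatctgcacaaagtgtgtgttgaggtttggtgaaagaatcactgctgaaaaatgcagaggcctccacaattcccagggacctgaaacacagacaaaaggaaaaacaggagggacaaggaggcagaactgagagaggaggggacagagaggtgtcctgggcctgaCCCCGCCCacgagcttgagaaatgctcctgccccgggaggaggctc
PSG5, chr19:43186537-43186786: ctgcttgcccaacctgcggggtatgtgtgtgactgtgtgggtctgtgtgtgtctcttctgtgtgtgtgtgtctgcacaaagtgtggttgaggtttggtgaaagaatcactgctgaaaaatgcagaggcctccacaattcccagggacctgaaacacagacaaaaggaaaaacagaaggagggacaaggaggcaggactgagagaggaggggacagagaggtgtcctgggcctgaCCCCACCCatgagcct
PSG4 and PSG5 shared an unbroken run of 89 bases, PSG3 and PSG4 one of 71 and PSG3 and PSG5 one of 63. CCCCNCCC, picked after the sequences were seen and searched on both strands, occurred once in each, beginning 51, 46 and 16 bases before the annotated starts, in that order. It was present in 36% of the 35116 promoter windows of the same length, and a match in letters does not show that a factor binds.

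PSG5 stood at 31.0, 28.8 and 34.3 CPM in the 3 DMSO libraries and at 13.1, 11.1 and 11.0 CPM in the 3 dBRD9-A libraries. All 3 treated libraries were under all 3 DMSO libraries, and the log2 fold change was -1.43 ± 0.07 (SE, n = 3 per group; edgeR adjusted p = 8.63e-10). PSG1 went from 28.2, 25.7 and 26.9 CPM to between 9.70 and 10.7 CPM (-1.41 ± 0.07, edgeR adjusted p = 8.63e-10). PSG9 changed less, from 35.4, 33.2 and 31.8 CPM to 22.2, 21.0 and 19.5 CPM (-0.68 ± 0.05, edgeR adjusted p = 2.62e-07). PSG4 was at 58.5, 56.8 and 55.1 CPM without and 53.8, 51.7 and 49.4 CPM with the degrader. Its libraries did not overlap either, but its change of -0.14 ± 0.04 did not pass the test (edgeR adjusted p = 0.16).

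Fewer reads were counted for the other family members. PSG2 fell by 1.47 from 7.98, 7.01 and 7.81 CPM to 3.16, 2.71 and 2.40 CPM, and PSG11 fell by 1.40 from between 6.15 and 6.68 CPM to between 2.29 and 2.51 CPM. PSG7 (-0.97), PSG8 (-0.78) and PSG3 (-0.68) were called lower. The pseudogene PSG10P had 3 to 22 counts per library (-1.74, edgeR adjusted p = 0.0279) and lost its call in 5 of 12 leave-one-out fits (1 library left out each time), while PSG6 was under 1 CPM throughout (-0.72, edgeR adjusted p = 0.486). Family members share long identical stretches, so the split of reads among them depends on the authors' counting. The sum over the 11 members avoids that split: it was 183, 172 and 176 CPM in DMSO and 113, 108 and 103 CPM with dBRD9-A, a log2 change of -0.72 ± 0.04 (edgeR adjusted p = 2.76e-09). In GFP cells the sum went from 289, 287 and 304 CPM to 88.1, 88.8 and 87.4 CPM (-1.74 ± 0.04), and the test of the difference between the 2 cell states gave 1.02 ± 0.05 (edgeR adjusted p = 2.62e-09). Of 37 other trophoblast genes, 10 were tested and PLAC8 alone was called (-0.29 ± 0.04, edgeR adjusted p = 0.000236), against 1.93% of all genes. Nothing is read from this count. The list's median was -0.11, and 7 of the 10 were under 0. KISS1 was at -1.27 without a call (edgeR adjusted p = 0.0862), at means of 0.48 CPM in DMSO and 0.20 CPM with dBRD9-A.

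**Figure D3:**
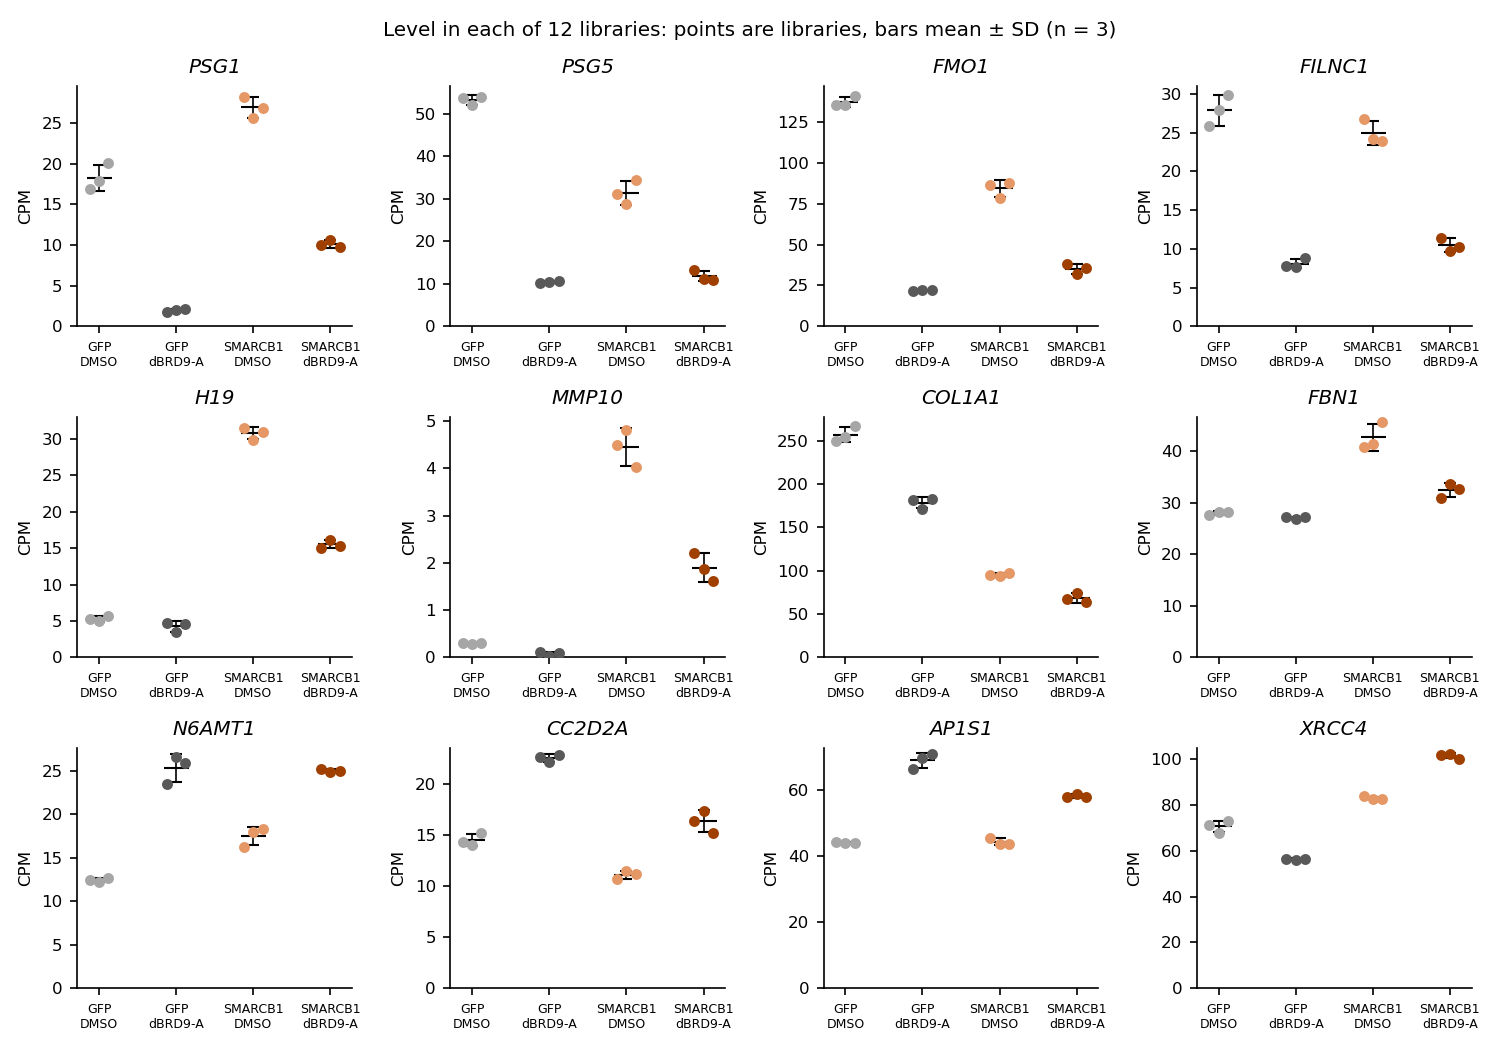
Level in CPM of 12 genes in each of the 12 libraries, with 1 point per library and bars for the mean ± SD of the 3 libraries of a group; each panel has its own scale from 0. In SMARCB1 cells PSG1 goes from 25.7 to 28.2 CPM in DMSO down to 9.70 to 10.7 CPM, and XRCC4 rises with dBRD9-A in SMARCB1 cells and falls in GFP cells.

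Outside the PSG family, and leaving out called genes that averaged under 50 counts in the SMARCB1 libraries, the largest falls were in single genes of unlike function. FMO1, a flavin-containing monooxygenase, had the smallest p-value of the experiment: 86.7, 78.6 and 87.9 CPM in DMSO against 37.8, 31.9 and 35.4 CPM with dBRD9-A (-1.27 ± 0.05, edgeR adjusted p = 2.31e-10). FILNC1, a long non-coding RNA, went from 26.8, 24.2 and 23.9 CPM to 11.4, 9.72 and 10.3 CPM (-1.26 ± 0.07, edgeR adjusted p = 1.18e-08). For both genes the groups were well apart. LINC03018, another non-coding RNA, stood at 117, 112 and 117 CPM in DMSO and at 70.9, 63.9 and 65.0 CPM after treatment (-0.80 ± 0.04, edgeR adjusted p = 3.06e-09). H19, the imprinted growth-restraining non-coding RNA, was at 31.5, 29.9 and 30.9 CPM and then at 15.1, 16.1 and 15.4 CPM (-0.99 ± 0.07, edgeR adjusted p = 1.14e-07). In GFP cells in DMSO, H19 was at 4.95 to 5.70 CPM. MMP10, a secreted metalloproteinase (stromelysin 2), fell by 1.23 from 4.50, 4.81 and 4.03 CPM to 2.21, 1.86 and 1.61 CPM, and in GFP libraries it did not exceed 0.311 CPM. INPP5D, which encodes an inositol phosphatase, fell by 1.02, the unnamed gene ENSG00000248187 by 1.10 and MAP1LC3C, a relative of the autophagy protein LC3, by 0.68.

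Extracellular matrix genes formed the second list with several called members. Of 34 tested, 7 were called lower and 0 higher, against 1.25% of all genes called lower and 0.679% higher. A log2 fold change under 0 was found in 88.24%, against 48.58% of all genes, and the median was -0.10. COL1A1, the major fibrillar collagen chain, was at 94.4, 93.5 and 97.8 CPM in DMSO and at 67.6, 74.3 and 63.7 CPM with dBRD9-A (-0.47 ± 0.05, edgeR adjusted p = 1.29e-05). Its partner COL1A2 went from 817, 805 and 810 CPM to 717, 710 and 664 CPM (-0.22 ± 0.03, edgeR adjusted p = 0.000414). FBN1, the microfibril protein fibrillin-1, went from 40.9, 41.5 and 45.7 CPM to 31.0, 33.7 and 32.6 CPM (-0.40 ± 0.04, edgeR adjusted p = 5.74e-05). In each of these 3 genes the highest treated library was below the lowest DMSO library. COL11A1 (-0.26), COL3A1 (-0.19), the membrane metalloproteinase MMP14 (-0.25) and LAMB2 (-0.16) completed the called members. LAMB2 lost its call in 9 of 12 leave-one-out fits, and 6 of the list's members were called in the 6 libraries alone.

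Another 5 of the 197 lower genes, not on the list and picked after their values were seen, are known from collagen folding and cross-linking. They were taken from the falls only, so nothing is read from them about such genes as a group. SERPINH1, the collagen chaperone HSP47, fell by 0.22, the prolyl hydroxylase family member P3H3 by 0.23, FKBP10 by 0.16, CRTAP by 0.12 and the lysyl oxidase LOXL3 by 0.43. The largest edgeR adjusted p of these 5 was 0.0181, that of CRTAP, which lost its call in 3 of 12 leave-one-out fits. The fibroblast marker list summed to 187 to 197 CPM in DMSO and to 150 to 163 CPM with dBRD9-A, with 4 of 7 members over 3 counts. Of these sums COL1A1, given above, alone made 93.5 to 97.8 and 63.7 to 74.3 CPM, so the list is not a separate result. The list's markers DCN, LUM and FAP were at or under 3 counts in every SMARCB1 library of both groups. In bulk RNA fewer cells of a type and less RNA per cell cannot be told apart.

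The induced gene itself was lower in treated cells. SMARCB1 mRNA was at 1807, 1912 and 1908 CPM in DMSO and at 1318, 1327 and 1277 CPM with dBRD9-A (-0.52 ± 0.03, edgeR adjusted p = 4.95e-08), with no overlap. The groups compared therefore differed in SMARCB1 mRNA as well as in treatment, and the part of this difference in the other changes was not tested. The counts do not tell induced from endogenous transcripts, and protein was not measured here. BRD9 mRNA was at 46.2, 49.2 and 45.3 CPM and at 44.9, 47.1 and 50.4 CPM; these groups overlapped (0.02 ± 0.04, edgeR adjusted p = 0.921).

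Among the 14 ncBAF subunit genes tested, BICRAL, a scaffold subunit that can take the place of BICRA, was the only one called. Of all genes 1.93% were called, and nothing is read from this count. BICRAL stood at 5.50, 5.60 and 6.26 CPM in DMSO and 8.43, 7.40 and 8.12 CPM with dBRD9-A (0.45 ± 0.08, edgeR adjusted p = 0.00529). With spike-in scaling it was at 0.31 with an edgeR adjusted p of 0.0728. It also lost its call when the 6 SMARCB1 libraries were fitted alone with replicate number as a block. Without SMARCB1 dBRD9-A libraries 1 and 3 it was at 0.34. SMARCA4, the ATPase (0.02), SMARCD1 (0.01), SMARCC1 (-0.02), SS18 (0.0037), SS18L1 (-0.05), ACTL6A (-0.04), BCL7A (0.0085), BCL7B (0.15), BCL7C (-0.03) and ACTB (0.01) did not pass, nor did BICRA (0.30) and SMARCA2 (-0.22), both at 1.18 CPM at most. ACTL6B was too low to test. Of 13 cBAF and PBAF subunit genes, SMARCB1, the induced gene, alone was called, and nothing is read from this count either.

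The 107 rises had a median of 0.22 on the log2 scale, and 26 of them were called in each of 12 leave-one-out fits, against a median of -0.27 and 101 of 197 for the falls. N6AMT1, a methyltransferase that modifies the translation release factor, went from 16.3, 17.9 and 18.3 CPM to between 24.8 and 25.2 CPM (0.51 ± 0.05, edgeR adjusted p = 2.21e-05). CC2D2A, a protein of the ciliary transition zone, went from 10.7, 11.4 and 11.1 CPM to 16.4, 17.4 and 15.2 CPM (0.56 ± 0.06, edgeR adjusted p = 1.85e-05). AP1S1, a clathrin adaptor subunit, was at 45.6, 43.8 and 43.8 CPM and then at 58.0, 58.9 and 57.9 CPM (0.39 ± 0.03, edgeR adjusted p = 1.72e-06), the smallest p among the rises. All treated libraries of these 3 genes exceeded all DMSO libraries, and all 3 kept their call with spike-in scaling. XRCC4, a DNA end-joining factor, rose by a log2 fold change of 0.29 from 83.8, 82.6 and 82.7 CPM to 102, 102 and 100.2 CPM (SE 0.03, edgeR adjusted p = 1.65e-05), but with spike-in scaling it was at 0.15 (edgeR adjusted p = 0.121). CSRP1, a LIM domain protein of the actin cytoskeleton, rose by 0.25 and was likewise lost on that scale (0.11, edgeR adjusted p = 0.201).

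MSH5, a meiotic recombination gene, rose by 0.62, the host transcript SNHG26 by 0.57 and RELB, a subunit of NF-kB, by 0.53. MSH5 overlaps a read-through gene and SNHG26 a snoRNA in GENCODE 29, so their reads may be shared. RELB lost its call without SMARCB1 DMSO replicate 2 (edgeR adjusted p = 0.0581) and was at 0.35 without SMARCB1 dBRD9-A replicate 2. The 5 largest rises under the naming rule were of another kind. ENSG00000226958 rose by 2.49, the small nucleolar RNAs SNORA53 by 1.68 and SNORD3C by 1.14, the antisense RNA ZBED3-AS1 by 0.67 and the mitochondrial ribosomal RNA MT-RNR2 by 0.65. SNORD3C was at 57.2, 59.3 and 60.8 CPM in DMSO and at 105, 83.0 and 205 CPM with dBRD9-A, and its order over the treated libraries was that of their snoRNA share. Over the 73 snoRNA and scaRNA genes tested the median was 0.56 and 8.22% were under 0, against 0.0028 and 48.58% over all genes. SNORA53 and SNORD3C were the 2 called, both higher, against 0.679% of all genes called higher, and nothing is read from this count. Without SMARCB1 dBRD9-A replicate 3, SNORA53 was at 0.85 and SNORD3C at 0.66, and without SMARCB1 DMSO replicate 3, ENSG00000226958 was at 4.53. Without both snoRNA-high libraries, an alternative added after the data were seen, SNORA53 was at 0.28 (edgeR adjusted p = 0.705) and SNORD3C at 0.48 (edgeR adjusted p = 0.147). Each of the 5 lost its call in at least 3 of 12 leave-one-out fits, among them, for each, at least 1 fit without a SMARCB1 DMSO library.

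Each list of growth and stress genes had 0 to 2 called members, against 1.93% called among all genes, and nothing is read from these counts about the programmes. No p53 target (0 of 26), CDK inhibitor (0 of 8), MYC network and ribosome biogenesis gene (0 of 30), cholesterol synthesis gene (0 of 23), Wnt or Notch gene (0 of 28) or HOX gene (0 of 31) was called; the medians of these lists ran from -0.04 to 0.03. This was edgeR's count; 19 of these 146 genes had an unadjusted p under 0.05, and DESeq2 called 2. Of 42 S phase genes CDCA7 was lower (-0.14), and of 54 G2/M genes HMGB2 (-0.13); CDCA7 lost its call without SMARCB1 DMSO replicate 2 (edgeR adjusted p = 0.0527). DDIT4, a stress-induced brake on the mTORC1 kinase, fell by 0.28 (edgeR adjusted p = 0.00151) and was the only called member of 25 ATF4 target genes, and HSP90B1 fell by 0.10 as the only one of 27 chaperone genes. The glucose transporter SLC2A1 (GLUT1) went from 88.2, 90.3 and 87.3 CPM to 76.1, 77.3 and 76.2 CPM (-0.21 ± 0.03, edgeR adjusted p = 0.000454), and the glycolytic enzyme PKM fell by 0.10, as 2 of 27 hypoxia and glycolysis genes. HMGB2, HSP90B1 and PKM each lost the call in 4 or more of 12 leave-one-out fits.

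The signalling lists that follow had 1 or 2 called members each, against 1.93% called among all genes, and these members are given as single genes with nothing read from the counts. DUSP6, a phosphatase that restrains ERK, rose by 0.26 (edgeR adjusted p = 0.000888) and the ERK-responsive factor ETV5 by 0.28 (edgeR adjusted p = 0.04), as 2 of 26 tested genes of the AP-1 and ERK list; both were lost with spike-in scaling, and ETV5 in 10 of 12 leave-one-out fits. The receptor kinase AXL fell by 0.29 (edgeR adjusted p = 4.2e-05), the only one of 27 YAP/TEAD targets. TNFAIP2 fell by 0.26 beside the rise of RELB among 12 NF-kB genes. LTBP2, which binds latent TGF-beta, fell by 0.35 and the BMP pseudoreceptor BAMBI rose by 0.15 among 18 TGF-beta and BMP genes, BAMBI at 0.0088 with spike-in scaling. IFITM1 fell by 0.23 (1 of 26 interferon-stimulated genes), the neural adhesion protein L1CAM by 0.27 (1 of 11 neuronal genes), PHF19 by 0.17 (1 of 29 polycomb genes) and the bromodomain protein ZMYND8 by 0.18 (1 of 34). BAMBI, IFITM1 and ZMYND8 lost their calls in 5, 5 and 4 of 12 leave-one-out fits. ZNF692, a zinc finger protein, rose by 0.48 among 16 cereblon ligase and neosubstrate genes; at an edgeR adjusted p of 0.0516 with spike-in scaling it was not called there. The single CEACAM gene that could be tested, from the family nearest to the PSG genes, was not called (-0.39).

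**Figure D4:**
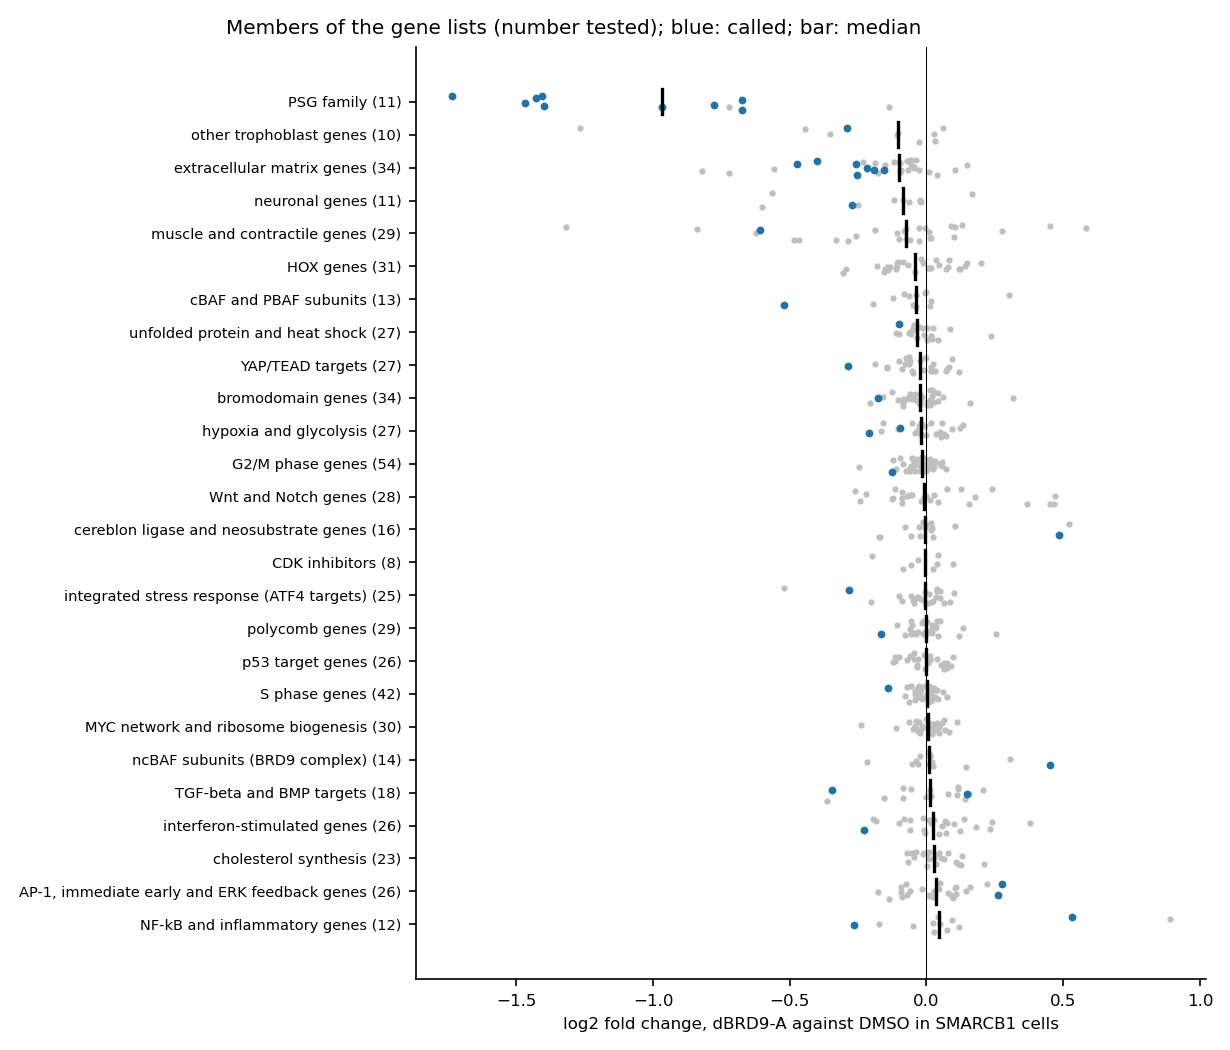
Log2 fold change with dBRD9-A in SMARCB1 cells (horizontal axis) for every tested member of each pathway list with at least 5 members tested (vertical axis, number tested in brackets); blue points were called and the black bar is the list median. The PSG family has its median at -0.97, while the other lists drawn have medians between -0.11 and 0.05. Among these the extracellular matrix list has the most called members, 7 of 34, against 1.93% called among all genes.

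Among the remaining called genes, 5 are given that were picked after their values were seen. LIN28A, an RNA-binding protein that blocks let-7 maturation, was at 519, 539 and 539 CPM in DMSO and 433, 458 and 437 CPM with dBRD9-A (-0.27 ± 0.03, edgeR adjusted p = 6.24e-05). HMGA2, a let-7 target and chromatin protein, fell by 0.29, and TRIM71, another let-7 target, by 0.18 (edgeR adjusted p = 0.0146). LIN28A and HMGA2 kept their calls in every leave-one-out fit, and TRIM71 lost its call in 2 of the 12. NQO1, a quinone reductase, was at 338, 331 and 337 CPM and then 268, 256 and 271 CPM (-0.34 ± 0.03, edgeR adjusted p = 2.97e-06), and the ferritin light chain FTL, which fell by 0.15.

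How far the response was that of cells without SMARCB1 was read from the GFP libraries, which share no library with the SMARCB1 contrast. In GFP cells dBRD9-A changed 2504 genes (15.9%), 7.43% higher and 8.47% lower. Of the 304 genes called in SMARCB1 cells, 211 were also called in GFP cells, 203 in the same direction and 8 in the opposite; that is 69.41% of the SMARCB1 calls and 8.43% of the GFP calls. The test of the difference between cell states (interaction) called 598 genes (3.8%), 2.15% with a higher and 1.65% with a lower value in SMARCB1 cells, 96 of them among the 304. Of these 96, 62 changed in the same direction but by less in SMARCB1 cells, 8 in the same direction but by more, and 26 had opposite signs. With spike-in scaling the median gene moved by 0.36 in GFP cells and the median interaction by -0.49, and the sign of 30 of the 96 interactions turned, so differences smaller than that shift depend on the scale.

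**Figure D5:**
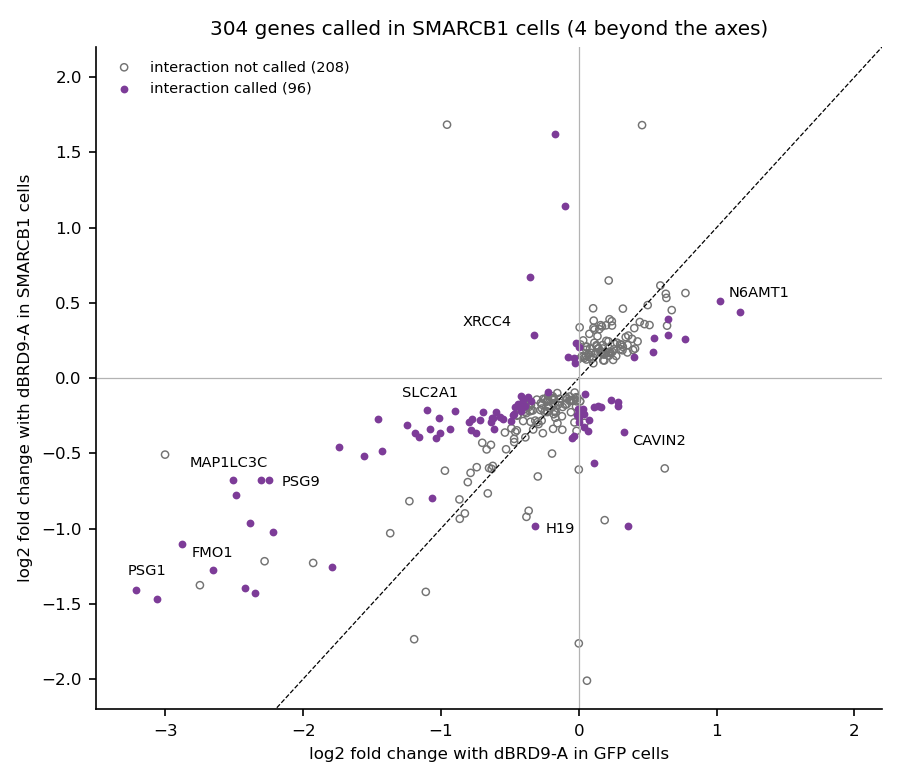
Log2 fold change with dBRD9-A in SMARCB1 cells (vertical axis) against that in GFP cells (horizontal axis) for the 304 genes called in SMARCB1 cells, with filled points for the 96 genes whose interaction was called and a dashed line where both changes are equal; 4 genes are beyond the axes. PSG genes with a called interaction, FMO1, MAP1LC3C and SLC2A1 lie above the line at lower left, where the fall in SMARCB1 cells is the smaller. PSG10P, whose interaction was not called, lies below the line (-1.74 in SMARCB1 and -1.19 in GFP cells). XRCC4 and CAVIN2 lie in the quadrants of opposite sign.

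Genes with a smaller change in SMARCB1 cells included the leading falls. FMO1 changed by -2.66 in GFP cells, from 136, 136 and 141 CPM to 21.3, 22.0 and 22.0 CPM, against -1.27 in SMARCB1 cells (interaction 1.38 ± 0.08, edgeR adjusted p = 7.64e-09). SLC2A1 went from 278, 275 and 290 CPM to 133, 128 and 131 CPM in GFP cells (-1.10), against -0.21 (interaction 0.89 ± 0.04, edgeR adjusted p = 5.04e-10). SLC2A1 in treated GFP cells was still above its level in untreated SMARCB1 cells. MAP1LC3C changed by -2.31 in GFP cells and -0.68 in SMARCB1 cells (interaction 1.63). N6AMT1 rose by 1.02 in GFP cells and 0.51 here (interaction -0.51 ± 0.08, edgeR adjusted p = 0.000501), and reached 23.5 to 26.5 CPM and 24.8 to 25.2 CPM in the treated groups. All 4 kept a called interaction of the same sign with spike-in scaling. For N6AMT1 this was no test of the sign. That scaling moved the median interaction by -0.49, the way the N6AMT1 interaction already went.

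For some genes the test of a difference did not pass. COL1A1 was at -0.53 in GFP cells and -0.47 in SMARCB1 cells, with an interaction of 0.05 ± 0.06 (edgeR adjusted p = 0.744), and its level in DMSO was 249.9 to 267 CPM against 93.5 to 97.8 CPM. CC2D2A (interaction -0.07, edgeR adjusted p = 0.722), MSH5 (0.02, edgeR adjusted p = 0.964) and NQO1 (-0.01, edgeR adjusted p = 0.945) did not pass either, which does not show that the responses were the same. With spike-in scaling all 4 interactions were called: COL1A1 was then at -0.17 in GFP and -0.61 in SMARCB1 cells (interaction -0.45), NQO1 at 0.03 and -0.48 (-0.51), CC2D2A at 0.99 and 0.42 (-0.57) and MSH5 at 0.95 and 0.48 (-0.48), all near the shift of -0.49 in the median interaction.

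Other genes fell more in SMARCB1 cells than in GFP cells or changed with opposite signs. FBN1 was at 27.5, 28.2 and 28.3 CPM in GFP cells in DMSO and at 27.3, 26.9 and 27.2 CPM with dBRD9-A (-0.05, edgeR adjusted p = 0.576), and the interaction was -0.35 ± 0.06 (edgeR adjusted p = 0.00338). COL3A1 rose by 0.11 in GFP cells and fell by 0.19 in SMARCB1 cells (interaction -0.30 ± 0.04, edgeR adjusted p = 0.000144), and COL11A1 was at 0.0050 in GFP cells (interaction -0.26). H19 fell by 0.32 in GFP cells against 0.99 here (interaction -0.67 ± 0.12, edgeR adjusted p = 0.00294). CAVIN2, a caveolar coat protein, rose by 0.33 in GFP cells and fell by 0.36 in SMARCB1 cells (interaction -0.69 ± 0.10, edgeR adjusted p = 0.000493). These 5 kept a called interaction of the same sign with spike-in scaling. That scaling moved the median interaction by -0.49, the way these already went, so their signs were not put to the test. XRCC4 moved the other way, falling by 0.33 in GFP cells from 71.1, 67.9 and 72.9 CPM to 56.4, 55.9 and 56.6 CPM and rising by 0.29 in SMARCB1 cells (interaction 0.62 ± 0.04, edgeR adjusted p = 1e-07); with spike-in scaling this was 0.12 (edgeR adjusted p = 0.254).

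Further genes of this kind were picked after their values were seen. The small heat shock protein HSPB2 was at 87.8, 80.3 and 81.9 CPM in DMSO and 67.2, 63.4 and 65.2 CPM with dBRD9-A in SMARCB1 cells (-0.35 ± 0.04) and at 0.07 in GFP cells (interaction -0.42 ± 0.06, edgeR adjusted p = 0.000241); it overlaps CRYAB on the other strand in GENCODE 29. The ribosome quality control ligase LTN1 (-0.28), the centromere protein CENPT (-0.38), the semaphorin and VEGF co-receptor NRP1 (-0.25) and the long non-coding RNA UCA1 (-0.24) fell in SMARCB1 cells, were not called in GFP cells and had called interactions. Syndecan 1 (SDC1), CD177, a neighbour of the PSG genes, and the autophagy gene GABARAPL1 fell by 0.14 to 0.19 in SMARCB1 cells and rose by 0.23 to 0.28 in GFP cells. These 3 lost their call in SMARCB1 cells in 3 to 8 of 12 leave-one-out fits.

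For 5 of the 304 genes no response could be read in GFP cells, since all 6 GFP libraries had at most 3 counts. They were SMARCB1, the myosin MYH8, the carboxypeptidase CPA4, the cytokine receptor IL23R and WTAPP1, the last 3 picked after their values were seen. MYH8 had 0 counts in every GFP library. In SMARCB1 cells it stood at 30.1, 28.4 and 36.2 CPM in DMSO and at 19.8, 21.0 and 21.6 CPM with dBRD9-A (-0.61 ± 0.08, edgeR adjusted p = 0.00113). It was the only called gene of 29 muscle and contractile genes, against 1.93% of all genes, and nothing is read from this count. CPA4 fell by 0.51 from between 11.9 and 14.5 CPM. IL23R had 28, 41 and 42 counts against 11, 12 and 10 counts, and WTAPP1 had 5, 5 and 12 counts against 16, 31 and 25 counts. CPA4, IL23R and WTAPP1 lost their calls in 4, 1 and 5 of 12 leave-one-out fits. WTAPP1 overlaps MMP10 on the other strand in GENCODE 29, and whether the authors' counting used strand is not given in the sources used here.

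SMARCB1 against GFP in DMSO uses the same SMARCB1 DMSO libraries, so its values are only set beside those of dBRD9-A. MMP10 was 3.86 and H19 2.53 higher with SMARCB1 and fell by 1.23 and 0.99 with the degrader. UCA1 was 3.96 higher and AXL 2.45 higher with SMARCB1, and they fell by 0.24 and 0.29. PSG9 (-1.70), SLC2A1 (-1.67), COL1A1 (-1.43), LINC03018 (-1.87) and FMO1 (-0.70) were lower with SMARCB1 and lower again with dBRD9-A, while PSG1 was 0.56 higher with SMARCB1 and fell by 1.41.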

How the data were processed

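RNA was purified with RNeasy Plus and libraries were made with TruSeq Stranded mRNA, per the labels' protocols. The authors deposited 3 tables of expected counts per gene and library. Per the submitters' processing notes, STAR, RSEM 1.3.1, DESeq2 and GRCh37/hg19 were named; the annotation and the use of strand are not given in the sources used here. RSEM shares reads among genes by estimation, and 97.43% of the deposited expected counts were whole numbers. The 6 columns that occur in more than 1 table were identical there.

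Expected counts were rounded and joined for 57820 gene identifiers. Symbols matched 51996 of them and GENCODE 29 52338; the 40 ERCC identifiers stayed out of library sizes and tests. Libraries held 34.97 to 58.54 megacounts. In edgeR 4.0.16 (R 4.3.3), genes passing filterByExpr (minimum count 10) were scaled by TMM and fitted by quasi-likelihood with 1 coefficient per group over all 12 libraries; p-values were adjusted over 15750 genes. Contrasts were dBRD9-A against DMSO in SMARCB1 cells, the same in GFP cells and their difference (interaction, SMARCB1 minus GFP). CPM uses TMM-scaled library sizes; CPM values are not adjusted for gene length, so levels compare a gene between libraries. Standard errors follow from the quasi-F statistic. The floor of 3 counts covers counting error only.

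Named genes were the 10 largest rises and falls among called genes with a mean of at least 50 counts and groups that did not overlap, the 5 of smallest p each way, called list members, ncBAF subunits and SMARCB1, and the 5 largest interactions each way; 21 more were chosen after their values were seen. Members and lists were chosen with earlier results of these data known. The 27 pathway lists and 6 cell type lists held 843 entries, of which 836 matched. Alternatives were DESeq2 1.42.0, DESeq2 size factors, spike-in scaling, other filters, a fold limit of 1 log2 unit, a replicate block, the 6 libraries alone and each library left out. Leaving out small RNA genes, leaving out both snoRNA-high libraries, and the block within the 6 libraries were chosen after seeing the data. The code was checked on simulated counts.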

Additional observations from a re-analysis of the deposited data

Results flagged for a closer look

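Each value here is the interaction, the log2 change with dBRD9-A in SMARCB1 cells minus that in GFP cells, for a gene called in SMARCB1 cells, and each passed the edgeR test of the difference between the 2 cell states at an adjusted p of 0.05. Among PSG genes it was 1.80 for PSG1, 1.59 for PSG2, 1.83 for PSG3, 0.92 for PSG5, 1.42 for PSG7, 1.71 for PSG8, 1.57 for PSG9 and 1.03 for PSG11, and 1.02 for the sum of PSG genes; each fell in both cell states and by less with SMARCB1. Other falls that were smaller in SMARCB1 cells were those of FMO1 (1.38), MAP1LC3C (1.63), ENSG00000248187 (1.78), INPP5D (1.20), FILNC1 (0.53), LINC03018 (0.27), SLC2A1 (0.89), TNFAIP2 (0.75), L1CAM (0.50), LTBP2 (0.44), DDIT4 (0.43), LIN28A (0.37), AXL (0.21) and COL1A2 (0.20).

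Rises that were smaller in SMARCB1 cells were those of N6AMT1 (-0.51), AP1S1 (-0.25), DUSP6 (-0.51) and the antisense RNA DLGAP1-AS2 (-0.73). Falls that were larger, or met by no called change or a rise in GFP cells, were those of H19 (-0.67), FBN1 (-0.35), COL11A1 (-0.26), COL3A1 (-0.30), CAVIN2 (-0.69), the unnamed gene ENSG00000248112 (-0.68), HSPB2 (-0.42), LTN1 (-0.35), CENPT (-0.35), NRP1 (-0.24), UCA1 (-0.27), SDC1 (-0.47), CD177 (-0.44) and GABARAPL1 (-0.37). XRCC4 (0.62), SNORD3C (1.24) and ZBED3-AS1 (1.03) rose in SMARCB1 cells and had log2 fold changes below 0 in GFP cells. The call of DLGAP1-AS2 in SMARCB1 cells was lost in 10 of 12 leave-one-out fits, that of ENSG00000248112 in 3 and that of ZBED3-AS1 in 10.

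With spike-in scaling, 34 of these 43 genes kept a called interaction of the same sign, and 3 (FILNC1, XRCC4 and L1CAM) kept the sign without the call. Another 6 turned sign: LINC03018 (-0.23), LTBP2 (-0.07), AXL (-0.29), DDIT4 (-0.07), COL1A2 (-0.29) and LIN28A (-0.13). That scaling moved the median interaction by -0.49, so the negative interactions were not put to the test by it. The 6 that turned and the 3 that lost the call were all positive before.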

How the results depend on the processing

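Depth limits genes of low count most: fold changes there carry large errors, and the floor of 3 counts was 0.0513 to 0.0858 CPM. The 304 calls in SMARCB1 cells became 873 with spike-in scaling, 652 with no filter on low counts, 159 in the 6 libraries alone, 114 there with the replicate block and 23 with a fold limit of 1 log2 unit; leaving out 1 library gave 169 to 422, the highest without SMARCB1 dBRD9-A replicate 2. In GFP cells 2504 calls became 11310 with spike-in scaling and 143 with the fold limit, and leaving out 1 library gave 1778 to 2804; the 598 interactions became 11270 and 42, and 422 to 862. DESeq2's Wald test called 340 genes and DESeq2 size factors 304. Without small RNA genes 325 were called, and without both snoRNA-high libraries 338, with the lone treated library assumed to vary like the other groups. No pairing by replicate number was seen: deviations of same-numbered SMARCB1 libraries correlated at 0.06, -0.0016 and -0.03. These correlations over all tested genes cannot show whether same-numbered libraries were prepared together. With the replicate block 254, 2233 and 529 genes were called in the 3 contrasts. The fall of the PSG sum was called in each fit run, from -0.69 to -0.85 (-0.72 with the replicate block). Of the 304 calls, 127 (101 lower, 26 higher) held in each of 12 leave-one-out fits, and 120 lower and 36 higher held in the 6 libraries alone. No named gene called in the main analysis turned sign in SMARCB1 cells under any alternative with a test. Leaving out both snoRNA-high libraries also moved genes other than snoRNAs, in both directions. L1CAM went from -0.27 to -0.15, MMP14 from -0.25 to -0.17 and LAMB2 from -0.16 to -0.07. The changes of RELB (0.53 to 0.79) and LTN1 (-0.28 to -0.38) became larger.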
